A study of Mus musculus with 8 samples.

Results

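The data described here are the response of IPO13-/- mouse embryonic stem cells (mESCs) to hydrogen peroxide (H2O2). Of the 8 RNA-seq libraries of the series, the 4 made from IPO13-/- cells were taken by their labels. Replicates 1 and 2 of untreated IPO13-/- cells were set against replicates 1 and 2 of IPO13-/- cells given 125 µM H2O2 for 1 h and then 2 h of recovery in fresh medium, and reads counted on each gene were compared. The other 4 libraries are the same groups of IPO13+/+ mESCs. Both lines have the strain background 129 x C57BL/6, were derived from day 5 preimplantation blastocysts, and were grown without feeder cells on gelatin with serum and LIF. The IPO13-/- cells are an established knockout line, and whether they stand for 1 clone is not given in the sources used here. Untreated cells of the same line are the controls for H2O2, so the loss of IPO13 is shared by all 4 libraries. Nothing in the labels says whether the replicates came from separate cultures, so the p-values measure the spread between these libraries, which may be technical.

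Importin-13 is a transport receptor of the importin beta family that carries selected proteins into and out of the nucleus. Hydrogen peroxide crosses membranes, oxidises protein thiols and damages DNA. Cells are known to answer it through p53, which induces genes of cell cycle arrest and death, through the kinases ERK, JNK and p38, which drive AP-1 and other early genes, and through NRF2, which induces genes of glutathione and haem metabolism. Protein damage can engage heat shock factors and the integrated stress response, and lysosomes take up damaged proteins and organelles under control of the factors TFEB and TFE3. In mESCs these programmes run beside a network of pluripotency factors that keeps the cells undifferentiated.

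Reads counted on genes lay between 60397877 and 73789079 in the IPO13-/- libraries, and 3 counts, taken as the smallest level told from 0, were 0.0407 to 0.0497 counts per 1000000 reads (CPM). All levels below are CPM after TMM scaling of the library totals. *Ipo13* stood at 25.9 and 25.05 CPM in untreated and at 24.9 and 25.9 CPM in treated IPO13-/- libraries, while the IPO13+/+ libraries lay between 68.3 and 72.4 CPM. Transcripts of the targeted gene were thus lower in every IPO13-/- library but well above the floor of counting, and H2O2 did not shift them measurably (log2 fold change -0.01 ± 0.05, FDR = 0.97 in edgeR's quasi-likelihood test). All 10 pluripotency markers were detected, with a summed level of 7073 to 7167 CPM before and 6979 to 7065 CPM after treatment. Summed markers of other cell types were low before and after treatment, at 19.7 to 19.9 and 16.5 to 18.7 CPM for 9 genes of primitive endoderm, 9.09 to 10.4 and 10.6 to 11.5 CPM for 8 of fibroblasts, 84.8 to 86.1 and 70.4 to 74.3 CPM for 8 of trophectoderm, and 136.6 to 139.5 and 144.6 to 145.5 CPM for 8 of neural cells. Only 1 listed marker, in the trophectoderm set, had no count in any IPO13-/- library. Replicate libraries were further apart than reads drawn at random from 1 pool would be, with a chi-square of 4.58 per gene in untreated and 6.59 in treated IPO13-/- cells, where sampling alone gives 1. In these bulk samples, fewer cells of a kind cannot be told apart from less RNA per cell.

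The response to H2O2 was broad, and most of it was small. Of 19424 genes tested, 2900 (14.9%) were higher and 2803 (14.4%) lower in treated IPO13-/- cells at an FDR below 0.05. A 2-fold change was reached by 489 of the genes that rose (2.52% of those tested) and by 72 that fell (0.371%). Large changes were concentrated among genes of low level: of the 489, 308 had an untreated mean under 1 CPM. Of 8634 well-expressed genes, defined by a mean of at least 10 CPM over the 4 IPO13-/- libraries, 1834 (21.2%) were higher and 1966 (22.8%) lower. Only 85 of these rose and 2 fell by 2-fold or more, so that 1749 rises and 1964 falls were below 2-fold, with a median size of 0.22 on the log2 scale. With library totals in place of TMM factors the same classes held 1418 rises and 2564 falls. These counts of small changes lean on single libraries: without untreated replicate 1 they were 1111 and 960, without untreated replicate 2 1459 and 1195, and without treated replicate 2 1339 and 1099. In IPO13+/+ cells 1130 (13.1%) of the well-expressed genes were higher and 2166 (25.1%) lower after the same treatment.

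**Figure D1:**
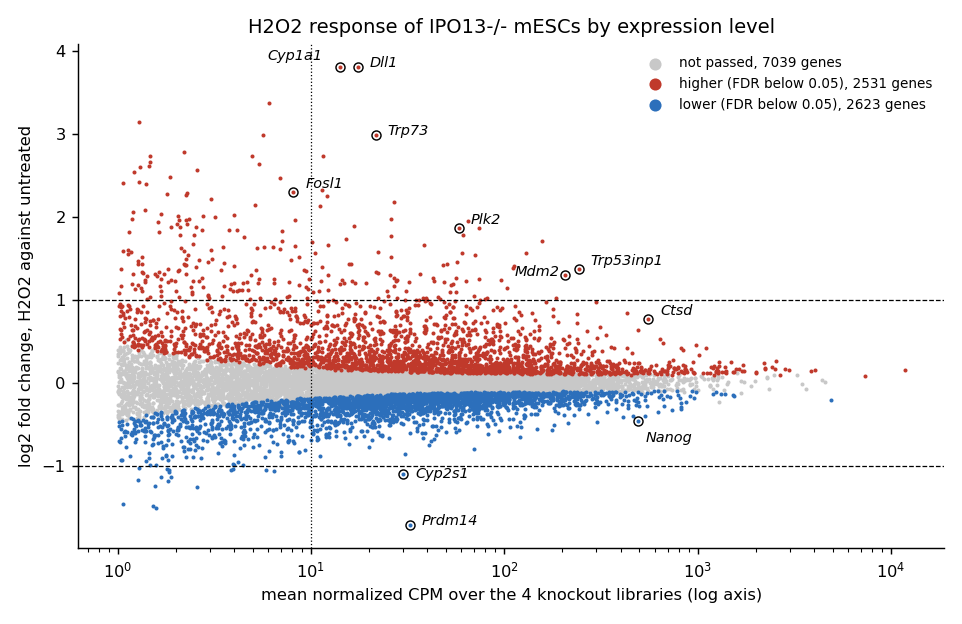
Log2 fold change after H2O2 in IPO13-/- mESCs (vertical axis) against the mean normalized CPM over the 4 knockout libraries (horizontal log axis), 1 point for each tested gene with at least 1 CPM, coloured by the test at an FDR below 0.05, with dashed lines at a 2-fold change and a dotted line at 10 CPM. Nearly all changes past 2-fold lie above the upper dashed line, and most called genes right of 10 CPM lie between the dashed lines.

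Among genes with at least 1 CPM, the largest rise was that of *Cyp1a1*, a cytochrome P450 that oxidises aromatic compounds, which is described with its pathway below. *Dll1*, a ligand of Notch receptors, went from 2.19 and 2.51 CPM in the untreated libraries to 33.8 and 31.4 CPM in the treated ones (log2 fold change 3.8 ± 0.09). *Pvrl4*, which encodes the adhesion protein nectin-4, measured 1.07 and 1.05 CPM before and 10.3 and 11.7 CPM after H2O2. Groups that did not overlap were a condition for naming the 10 largest rises. *Trp73*, a relative of p53 that is itself a p53 target, rose from 4.82 and 4.88 to 39.4 and 37.4 CPM (2.99 ± 0.06, FDR = 2.0e-22). *Wnt3*, a WNT ligand of the early embryo, rose from 0.224 and 0.306 to 1.96 and 2.68 CPM, and *Tap1*, a peptide transporter of antigen presentation, from 1.24 and 1.305 to 9.498 and 10.6 CPM. The other members of the 10 largest rises were *Sec14l5* (2.79), *Nkx2-9* (2.74), *Prr15l* (2.73) and *Bhlhe41* (2.73 on the log2 scale), the last a transcriptional repressor that also acts in circadian timing. All 10 stood below 5 CPM in untreated cells.

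Falls were smaller. *Prdm14*, a repressor that protects naive pluripotency and marks germ cell precursors, measured 48.9 and 51.1 CPM without and 14.3 and 16.1 CPM with H2O2, a log2 fold change of -1.71 ± 0.06 (FDR = 7.6e-19), the largest fall of any gene with at least 1 CPM. The 9 that follow were *Pirt*, *Itgb1bp2*, *Cybb*, *Pax6*, *Slc26a9*, *Pramel7*, *Il7*, *Aoc3* and *Tril*, with log2 fold changes between -1.51 and -1.13. All 9 stood below 4 CPM in untreated cells. *Cybb* encodes the catalytic subunit of the phagocyte NADPH oxidase, which makes superoxide, and went from 1.56 and 1.56 to 0.494 and 0.647 CPM. *Pax6*, a neural and eye transcription factor that is a known cargo of IPO13, fell from 3.74 and 3.495 to 1.498 and 1.54 CPM.

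Genes of the p53 pathway rose together. Of 39 tested members of a p53 list, 28 were higher and 2 lower, against 14.9% and 14.4% of all tested genes, and 14 of the 28 rose by 2-fold or more, against 2.52%. The median log2 fold change of the list was 0.70, where the median of all genes was 0.00. Between 27 and 29 members were higher under every alternative fit and with any library left out. The transcript of p53 itself, *Trp53*, measured 391 and 401 CPM before and 395 and 407 CPM after treatment, with overlapping groups and no call (0.02 ± 0.04, FDR = 0.82). Of 7 regulators of the pathway, 5 rose and 1 fell. *Mdm2*, the ubiquitin ligase that degrades p53, went from 120.1 and 118 to 302 and 285 CPM (1.3 ± 0.05), and *Ccng1*, a cyclin that feeds back on p53 through phosphatase 2A, from 204 and 199 to 401 and 388 CPM (0.97 ± 0.04). For both genes the replicates of a group lay close together, and all treated libraries stood above all untreated ones.

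Cell cycle arrest was represented by 11 tested members, of which 9 rose and none fell. *Cdkn1a*, the p21 inhibitor of cyclin-dependent kinases, measured 19.99 and 22.2 CPM in untreated and 52.1 and 52 CPM in treated libraries (1.31 ± 0.05, FDR = 3.8e-17). *Plk2* and *Btg2*, a polo-like kinase and an antiproliferative cofactor of mRNA decay, rose further, from 25.6 and 24.8 to 93.4 and 89.8 CPM and from 26.99 and 28.4 to 96.8 and 93.1 CPM. *Ddit4*, an inhibitor of mTORC1 signalling, went from 30.4 and 30.6 to 82.2 and 85.8 CPM. All 4 genes were separated between treated and untreated libraries by more than 2-fold. The p53 consensus is a repeat of half-sites whose cores are often CATG, and 250 bases before the first annotated start of *Cdkn1a* in the promoter tables of RefSeq (GRCm38.p6, chr17:29090729-29090978, plus strand) hold a pair of them. The sequence is printed because it carries this site just ahead of an induced gene, with the core pair CATGNNNNNNCATG in capitals.
Cdkn1a: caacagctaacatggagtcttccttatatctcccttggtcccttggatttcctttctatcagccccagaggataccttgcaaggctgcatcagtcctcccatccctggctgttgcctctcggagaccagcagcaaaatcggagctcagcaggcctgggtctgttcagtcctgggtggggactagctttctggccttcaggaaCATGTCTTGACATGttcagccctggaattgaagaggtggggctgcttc
The pair begins at -48, where -1 is the last base before the start. It was present, on both strands searched, in 52 of 13807 promoter windows of 300 bases (0.377%), and in 1 of the 28 windows of the p53 list. This motif was chosen for the search after the values were seen.

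Death genes rose as regularly: of 12 tested, 10 were higher and none lower, with a median log2 fold change of 1.01. *Fas*, the receptor that starts extrinsic apoptosis, stood at 0.198 and 0.0483 CPM without H2O2, close to the floor of counting, and at 0.942 and 1.33 CPM with it (3.1 ± 0.35). *Apaf1*, the scaffold of the apoptosome, measured 33.2 and 30.8 and then 115 and 118 CPM (1.86 ± 0.05, FDR = 1.0e-20), a smaller fold change in libraries far above the floor. *Phlda3*, which restrains AKT, rose from 62.7 and 60.1 to 154 and 168 CPM, *Trp53inp1* from 138 and 133 to 366 and 337 CPM, and *Perp*, a membrane protein of desmosomes, from 45.2 and 42.7 to 100.1 and 109 CPM. The BH3-only genes *Bbc3* and *Pmaip1*, whose products neutralise BCL2 proteins, rose by 1.11 ± 0.05 and 0.54 ± 0.05 on the log2 scale. Of 9 members for repair and metabolism, 4 rose and 1 fell. *Dcxr*, *Ephx1* and *Ercc5*, a carbonyl reductase, an epoxide hydrolase and a repair endonuclease, had log2 fold changes of 1.22, 1.1 and 1.09. *Rrm2b*, the p53-induced subunit of ribonucleotide reductase, went the other way, from 7.82 and 8.13 to 5.78 and 6.22 CPM (-0.41 ± 0.08, FDR = 1.3e-04).

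**Figure D2:**
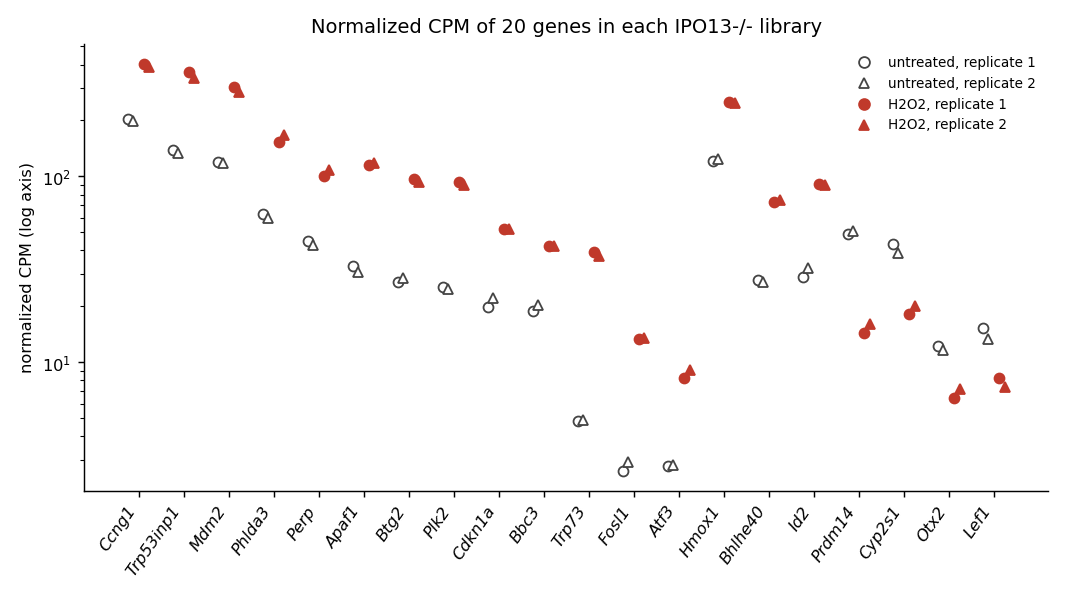
Normalized CPM (vertical log axis) of 20 genes in each of the 4 IPO13-/- libraries, open symbols for untreated and filled for H2O2, circles for replicate 1 and triangles for replicate 2. The 20 genes were picked from those called in IPO13-/- cells, so groups that stand apart follow in part from the choice. For every gene shown, both filled symbols lie on 1 side of both open symbols. Replicates of a group lie close together beside the distance between groups.

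In IPO13+/+ cells 29 of the 39 p53 members were higher and 3 lower, with a median of 0.65. The interaction test, which compares the stress responses of the genotypes gene by gene, called 527 of all tested genes (2.71%). Of the 527, 390 had the larger value in IPO13-/- cells. Among well-expressed genes, which 34 of these 39 were, it called 4.53%. It called 10 of these 39, all with the larger value in IPO13-/- cells. The 10 became 2 without either untreated IPO13-/- library, 5 and 4 without treated IPO13-/- replicate 1 or 2, and 3 without either treated IPO13+/+ library. The counts of interaction calls depended strongly on single libraries throughout. Over all genes they were 73 without untreated IPO13-/- replicate 1 and 134 without replicate 2, 296 and 268 without treated IPO13-/- replicate 1 or 2, 212 and 190 without treated IPO13+/+ replicate 1 or 2, and 1157 and 819 without untreated IPO13+/+ replicate 1 or 2. The response of *Cdkn1a* was 1.31 in IPO13-/- and 0.81 in IPO13+/+ cells, and the difference of 0.50 (FDR = 7.1e-05) was called with every library left out. *Apaf1* rose by 1.86 and 1.92 in the respective genotypes, a difference of -0.06 on the log2 scale that was not called (FDR = 0.77).

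AP-1 is a dimer of FOS, JUN and ATF family proteins that binds a short palindromic site. Of 10 tested subunits, 7 rose and none fell, against 14.9% and 14.4% of all tested genes. *Fosl1* rose from 2.61 and 2.899 to 13.4 and 13.5 CPM (2.3 ± 0.08, FDR = 5.7e-18) and *Atf3* from 2.77 and 2.82 to 8.28 and 9.08 CPM (1.63 ± 0.09). All treated libraries of these subunits lay far above the untreated ones. *Fosl2* and *Maff*, a small MAF protein that also partners NRF2, followed with 0.91 and 0.85 on the log2 scale. *Fos* measured 12.2 and 10.4 CPM without and 17.4 and 17.3 CPM with H2O2, and *Jun* 28.4 and 25.9 and 36.7 and 35.6 CPM, rises of 0.61 ± 0.07 and 0.41 ± 0.05. *Fosb* measured 4.65 and 3.12 CPM untreated and 4.402 and 5.03 CPM treated, and these groups overlapped (0.26 ± 0.12, FDR = 0.13). Without untreated replicate 1, the library with the higher untreated level, its value was 0.60. It passed in edgeR fits with a term for the replicate number (0.27, FDR = 0.0317) and of the 4 IPO13-/- libraries alone (0.26, FDR = 0.0305). The responses of *Fos*, *Jun* and *Fosb* in IPO13+/+ cells were 1.24, 0.81 and 1.39, larger than in IPO13-/- cells by the interaction test (FDR = 2.1e-04, 0.0022 and 1.6e-04), although none of the 3 was called without untreated IPO13-/- replicate 1. *Fosl2* and *Maff* differed the opposite way, with 0.42 and 0.27 in IPO13+/+ cells (FDR = 0.019 and 8.5e-06), and the call of *Fosl2* was lost without any 1 of the 4 IPO13-/- libraries or of the 2 treated IPO13+/+ libraries.

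Other early response factors were split. Of 23 tested genes of the EGR, IER, KLF and NR4A groups, 11 were higher and 4 lower, the falls being near the 14.4% of all tested genes and the rises above the 14.9%. *Btg2* and *Btg1* led the rises (1.78 and 1.26), followed by *Ier5* (1.19), *Arc* (1.00) and *Klf6* (0.90 ± 0.04), a zinc finger factor that went from 69.3 and 66.4 to 124 and 129 CPM. The zinc finger factor *Egr1*, which growth signals induce within minutes, was instead lower at the time sampled, at 123 and 101 CPM untreated and 83.7 and 66.1 CPM treated (-0.58 ± 0.10, FDR = 5.5e-05). Its replicates were spread widely, and the call was lost without untreated replicate 1 (FDR = 0.0896). *Egr2* was lower as well, from 0.911 and 1.01 to 0.556 and 0.436 CPM. Among feedback inhibitors of MAP kinases, 5 of 10 dual-specificity phosphatases were higher and 1 lower, and 5 of 8 Sprouty, Spred and other ERK target genes were higher and 1 lower, against 14.9% and 14.4% of all tested genes. The other 6 did not pass. *Dusp4* went from 24.9 and 23.3 to 50.1 and 46.6 CPM (1.0 ± 0.05), *Dusp1* from 87.3 and 83.4 to 146 and 144 CPM, and *Dusp5* from 13.2 and 12.8 to 20.3 and 18.8 CPM. The log2 fold changes of *Dusp4* and *Dusp5* in IPO13+/+ cells were 0.26 and 0.02, and both differences were called with every library left out (interaction 0.75 and 0.57, FDR = 4.8e-07 and 2.8e-04). *Phlda1*, an ERK-induced regulator of death, rose by 1.2 and by 0.67 in the respective genotypes (FDR = 4.4e-04 for the difference).

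Antioxidant genes moved by small amounts and almost always upwards. Of 50 tested members, 43 of them well expressed, 32 were higher and 1 was lower, against 21.2% and 22.8% of well-expressed genes. Their median log2 fold change was 0.15, and only *Hmox1* reached 2-fold. With library totals in place of TMM factors 22 were higher. The count of rises was 19 without untreated replicate 1. Among 7 regulators 6 rose: *Bach1*, the repressor that competes with NRF2, from 60.5 and 62.1 to 115 and 110.5 CPM, *Sqstm1*, which sequesters the NRF2 inhibitor KEAP1, from 309 and 309 to 564 and 546 CPM, and *Nfe2l2*, the gene of NRF2 itself, from 62.97 and 66.1 to 97.8 and 91.3 CPM. Their log2 fold changes were 0.88, 0.84 and 0.55, with standard errors of 0.05, 0.04 and 0.05. *Hmox1*, haem oxygenase, which breaks haem down to biliverdin, iron and carbon monoxide, measured 121 and 125 CPM without and 250.3 and 248 CPM with H2O2 (1.02 ± 0.04, FDR = 2.1e-17). Untreated and treated libraries of these 4 genes were well apart. NRF2 targets of detoxification and glutathione synthesis changed far less. *Nqo1*, a quinone reductase, rose by 0.38 ± 0.05, *Gclc* and *Gclm*, the subunits of glutamate-cysteine ligase, by 0.34 ± 0.05 and 0.25 ± 0.04, and *Srxn1*, which restores peroxiredoxins, by 0.32 ± 0.04. Catalase (*Cat*), which degrades H2O2 directly, measured 125 and 129 CPM before and 137 and 139 CPM after, and its call (FDR = 0.028) was lost under 6 alternatives. *Prdx3*, the mitochondrial peroxiredoxin, was the member that fell (-0.21 ± 0.04).

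Of the same 50 antioxidant genes, 12 were higher and 1 lower in IPO13+/+ cells, with a median of 0.03. Among well-expressed genes the interaction called 4.53%, and 317 of those 391 calls were larger in IPO13-/- cells. Of the 50 it called 6, each larger in IPO13-/- cells. This count was 19 with a replicate block. It was 4 with RLE factors, library totals, either other filter on low counts, DESeq2 or limma-voom. The median difference of the 50 genes lay between 0.07 and 0.17 over the alternatives. *Hmox1* rose by 0.57 in IPO13+/+ cells, a difference of 0.45 (FDR = 9.6e-06), *Bach1* by 0.24 (difference 0.64) and *Sqstm1* by 0.27 (difference 0.58). These 3 calls held with every library left out, while the call of *Nfe2l2* (difference 0.25, FDR = 0.036) was lost without any 1 of untreated IPO13-/- replicates 1 and 2, treated IPO13-/- replicate 1 and treated IPO13+/+ replicates 1 and 2. In 44 promoter windows of the list the antioxidant response element TGACNNNGC was found in 10 (22.7%). On either strand, 14.2% of all windows and 15.2% of windows of genes with at least 1 CPM hold it. It was in 26.2% of 42 windows of integrated stress response genes and in 14.3% of 35 windows of heat shock genes.

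**Figure D3:**
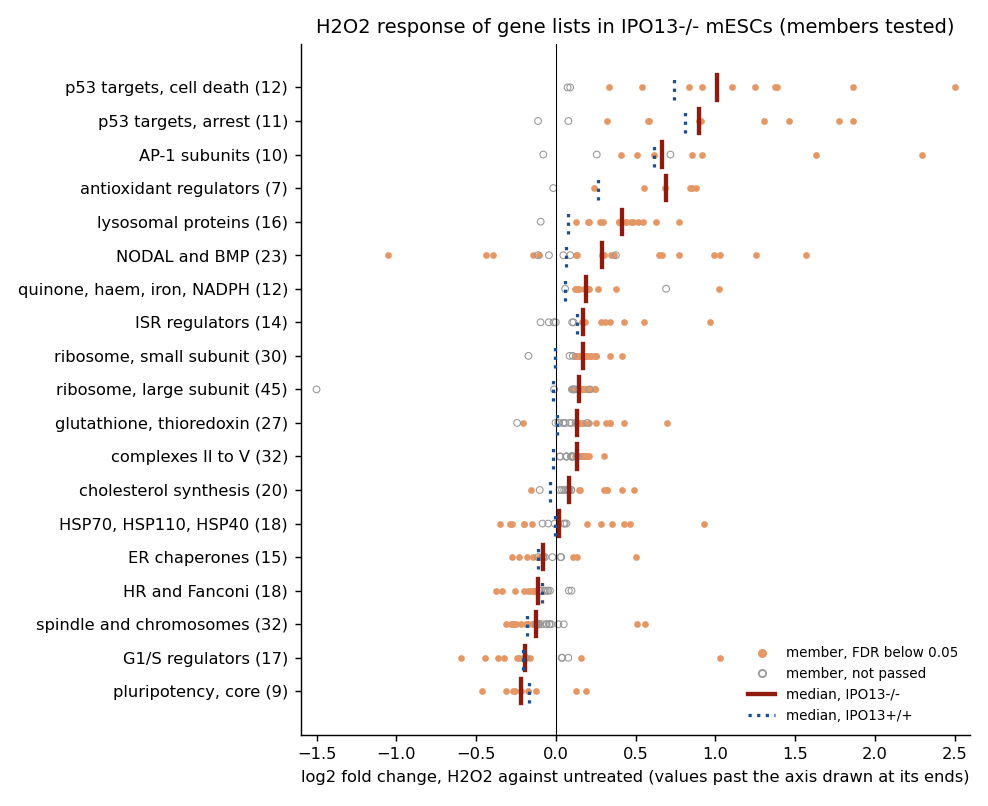
Log2 fold change after H2O2 (horizontal axis) of the tested members of 19 gene groups in IPO13-/- mESCs, filled points past an FDR of 0.05 and open points not, with the group's median in IPO13-/- (solid bar) and in IPO13+/+ cells (dotted bar) and members past the axis drawn at its ends. The p53, AP-1 and antioxidant regulator groups have the highest medians, and the solid bar lies furthest right of the dotted one for the antioxidant regulators and the lysosomal proteins.

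Genes of lysosomal proteins rose together, by less than 2-fold. Of 16 lysosomal proteins, all of them well expressed, 15 were higher and none lower, against 21.2% and 22.8% of well-expressed genes, with a median log2 fold change of 0.42. Between 13 and 15 were higher under every alternative. *Ctsd*, the aspartic protease cathepsin D, went from 402 and 421 to 689 and 713 CPM (0.77 ± 0.04, FDR = 7.8e-15). *Ctsa*, the protective protein of lysosomal sialidase and galactosidase, measured 109 and 116 and 174 and 174 CPM, and *Ctsl*, a cysteine protease, 142 and 143 and 205 and 211 CPM. *Hexa*, which degrades gangliosides, rose from 69.4 and 66.4 to 96.2 and 98.1 CPM, and *Neu1*, the sialidase, from 12.5 and 12.4 to 17.3 and 17.4 CPM. For each of these 5 genes the replicates lay close together and the groups were far apart beside their spread. *Npc1*, a cholesterol exporter of the lysosome, was the member that did not pass (-0.09 ± 0.04). Of 19 genes of TFEB control and autophagy, 8 rose and none fell, against the same shares. *Sqstm1*, an autophagy receptor that is also counted among the antioxidant regulators, *Gabarap* (0.41), *Atg12* (0.38) and *Map1lc3b* (0.31) were among them. *Tfeb* itself measured 50.4 and 49.05 CPM untreated and 52.03 and 51.9 CPM treated, and did not pass (FDR = 0.34).

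The same 16 lysosomal genes had a median of 0.08 in IPO13+/+ cells, where 6 were higher and 1 lower, against 13.1% and 25.1% of well-expressed genes. Among well-expressed genes the interaction called 4.53%, and 317 of those 391 calls were larger in IPO13-/- cells. Of the 16 it called 13, all larger in IPO13-/- cells. This count was 3 without untreated IPO13-/- replicate 1, 5 without replicate 2, 8 and 6 without treated IPO13-/- replicate 1 or 2, 6 without either treated IPO13+/+ library, 7 with library totals and 10 with DESeq2 or limma-voom. *Ctsl* had log2 fold changes of 0.55 in IPO13-/- and 0.08 in IPO13+/+ cells, a difference of 0.47 (FDR = 9.6e-06). *Ctsa* differed by 0.46 and *Hexa* by 0.38. These 3 differences were called with every library left out, and that of *Ctsd* (0.30, FDR = 0.0018) was lost without untreated IPO13-/- replicate 1.

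**Figure D4:**
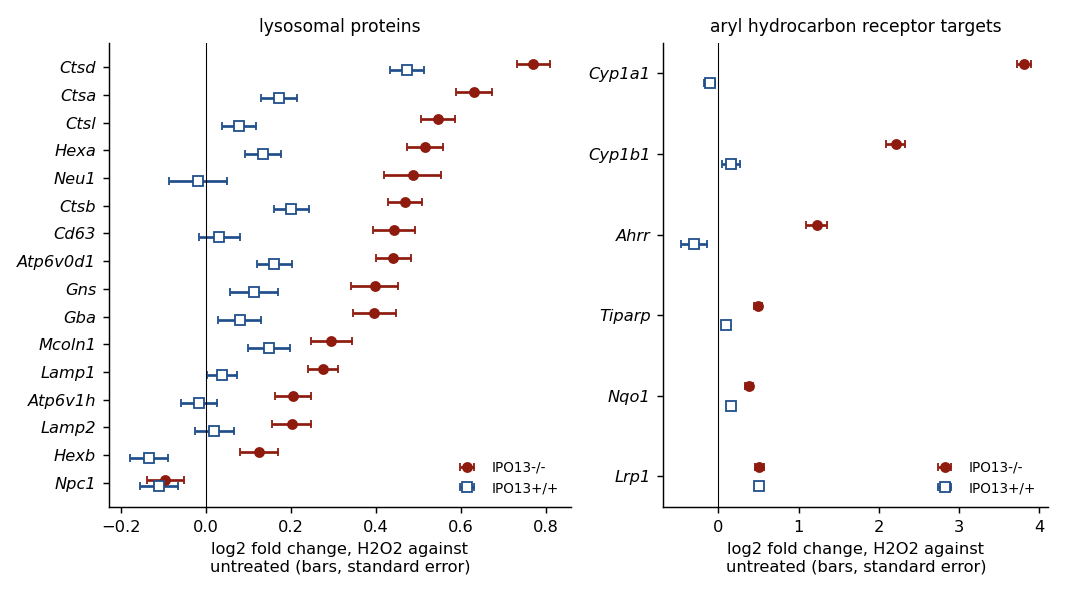
Log2 fold change after H2O2 with its standard error for 16 genes of lysosomal proteins (left) and 6 genes controlled by the aryl hydrocarbon receptor (right), filled circles for IPO13-/- and open squares for IPO13+/+ mESCs. The 6 genes were picked and are not the full set of 8 tested targets, to which *Ahrr* was not counted. In that set 2 did not pass in IPO13-/- cells and the lowest value was -0.6. All lysosomal genes but *Npc1* have the circle right of 0 and of the square, and *Cyp1a1*, *Cyp1b1* and *Ahrr* have circles far right and squares near 0.

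TFEB and TFE3 bind an extended E-box, and the promoter sequences of 2 members, upstream of the first annotated start in RefSeq (GRCm38.p6), are printed to show such sites ahead of lysosomal genes, with CACGTG in capitals. *Ctsd* lies on the minus strand at chr7:142387828-142388077 and *Mcoln1*, a calcium channel of the lysosome that rose by 0.30 ± 0.05, on the plus strand at chr8:3500269-3500518.
Ctsd: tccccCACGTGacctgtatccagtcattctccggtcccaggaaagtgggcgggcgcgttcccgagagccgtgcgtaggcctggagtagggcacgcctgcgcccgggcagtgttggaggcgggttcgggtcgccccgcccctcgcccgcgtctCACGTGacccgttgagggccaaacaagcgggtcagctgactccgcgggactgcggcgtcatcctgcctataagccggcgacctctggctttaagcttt
Mcoln1: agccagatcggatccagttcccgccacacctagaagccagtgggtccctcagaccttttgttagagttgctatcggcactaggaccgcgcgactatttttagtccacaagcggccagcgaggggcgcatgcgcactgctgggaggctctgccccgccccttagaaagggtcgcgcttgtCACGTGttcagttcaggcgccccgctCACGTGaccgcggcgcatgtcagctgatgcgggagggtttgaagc
The matches begin at -245 and -98 in *Ctsd* and at -71 and -45 in *Mcoln1*, and the nearer match of each is part of the longer run TCACGTGA. Windows of 300 bases, from 250 before to 50 after the start, were available for 10 of the 16 lysosomal genes, of which 5 held CACGTG and 3 TCACGTGA. Of all 13807 windows 9.1% and 1.51% did, and of 9109 windows of genes with at least 1 CPM 10.8% and 2.09%. With the genes of TFEB control and autophagy added to the lysosomal ones, 7 of 25 windows held CACGTG and 3 held TCACGTGA. Genes with a larger value in IPO13-/- cells by the interaction (a greater rise or smaller fall) are 2.01% of all tested genes. Of 295 windows of this class 22.4% held CACGTG and 7.12% TCACGTGA. For genes with the smaller value (a smaller rise or greater fall) the shares were 5.94% and 0.99% of 101 windows. Every TCACGTGA contains CACGTG, both motifs are their own reverse complement, and both were added to the search after the values of the list had been seen.

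The aryl hydrocarbon receptor is a ligand-activated factor that pairs with ARNT and induces enzymes of xenobiotic metabolism. *Cyp1a1*, its most inducible target, measured 1.82 and 1.95 CPM in untreated and 26.98 and 25.7 CPM in treated IPO13-/- libraries (3.81 ± 0.09, FDR = 1.4e-21). *Cyp1b1*, a related P450, rose from 0.964 and 1.22 to 5.096 and 4.95 CPM and *Ahrr*, the repressor that the receptor induces against itself, from 1.4 and 1.55 to 3.77 and 3.09 CPM (2.21 ± 0.12 and 1.23 ± 0.13). *Tiparp*, another feedback inhibitor, went from 73.2 and 68.3 to 101 and 98.9 CPM. Treated and untreated libraries did not overlap for any of the 4 genes. Of 8 tested targets, to which *Ahrr* was not counted, 6 rose and none fell under every alternative, against 14.9% and 14.4% of all tested genes. The receptor gene *Ahr* measured 6.998 and 8.36 CPM without and 8.37 and 7.08 CPM with H2O2, with overlapping groups (FDR = 0.94). In IPO13+/+ cells *Cyp1a1*, *Cyp1b1* and *Ahrr* changed by -0.11, 0.16 and -0.31 (FDR = 0.28, 0.33 and 0.18). The differences of 3.92, 2.05 and 1.53 were called under every alternative and are among the 4 largest called differences of genes with at least 1 CPM over the 8 libraries.

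The receptor binds sites with the core GCGTG. Promoter sequences of *Cyp1a1* (chr9:57697363-57697612, plus strand) and *Ahrr* (chr13:74292332-74292581, minus strand) are given from the same source because these genes responded in IPO13-/- cells and not detectably in IPO13+/+ cells, with the core on either strand in capitals.
Cyp1a1: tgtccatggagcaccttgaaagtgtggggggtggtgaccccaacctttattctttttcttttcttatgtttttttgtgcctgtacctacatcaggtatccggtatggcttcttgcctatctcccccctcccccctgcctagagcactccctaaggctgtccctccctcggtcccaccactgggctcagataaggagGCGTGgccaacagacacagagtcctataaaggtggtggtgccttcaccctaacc
Ahrr: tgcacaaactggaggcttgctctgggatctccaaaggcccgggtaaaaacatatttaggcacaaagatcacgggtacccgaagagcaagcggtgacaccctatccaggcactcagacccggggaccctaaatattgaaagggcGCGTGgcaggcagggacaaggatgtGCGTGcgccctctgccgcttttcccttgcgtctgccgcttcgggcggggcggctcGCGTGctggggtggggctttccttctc
The core begins at -54 in *Cyp1a1* and at -107, -82 and -27 in *Ahrr*. It is a frequent word, found in 45.0% of all windows and in 3 of the 7 windows of target genes, so a match to it is common in promoters at large.

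Heat shock genes showed no common direction. Of 44 tested, 12 were higher and 9 lower, shares near the 21.2% and 22.8% of well-expressed genes, and the median log2 fold change was 0.03. Without untreated replicate 1 the counts were 5 and 4, without untreated replicate 2 9 and 7, and without treated replicate 1 or 2 8 and 5 or 9 and 4. *Cryab*, the small heat shock protein alpha-B crystallin, rose from 1.27 and 0.902 to 4.17 and 4.69 CPM (2.0 ± 0.13) and *Dnajb5*, an HSP40, from 12.7 and 12.02 to 22.3 and 24.8 CPM. The abundant chaperone *Hspa8* fell from 5318 and 5220.2 to 4563 and 4608 CPM (-0.20 ± 0.03, FDR = 8.5e-06), and *Hsph1*, its nucleotide exchange factor, from 338 and 311 to 264 and 267 CPM. The inducible HSP70 genes *Hspa1a* and *Hspa1b* are near-identical copies whose reads cannot be divided with certainty. They stood at 1.43 and 1.32 and 5.65 and 5.23 CPM untreated and at 1.96 and 1.75 and 4.402 and 4.61 CPM treated, a small rise and a small fall. Either call was lost without untreated replicate 1 and without treated replicate 1, that of *Hspa1a* also without untreated replicate 2 and that of *Hspa1b* also without treated replicate 2. In IPO13+/+ cells *Hspa1b* rose by 0.52, and the interaction of -0.80 (FDR = 1.0e-04) was called under every alternative.

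The integrated stress response slows translation and induces genes through ATF4. Of 52 tested members 23 rose and 1 fell, against 21.2% and 22.8% of well-expressed genes, with a median of 0.11, and the rises were 13 without untreated replicate 1. *Ddit3*, which encodes the death-promoting factor CHOP, went from 3.99 and 4.43 to 8.76 and 7.65 CPM (0.97 ± 0.09) and *Atf4* from 254 and 250.3 to 318 and 321 CPM (0.34 ± 0.04). *Trib3*, a pseudokinase induced by CHOP, rose by 0.43. Of 18 genes of amino acid synthesis and transport 9 rose and 1 fell, and of 12 tRNA ligases 2 rose, a share below that of well-expressed genes. *Asns*, asparagine synthetase, measured 292 and 311 CPM before and 320.0 and 316 CPM after treatment and did not pass (FDR = 0.16). *Chac1*, which degrades glutathione, rose from 7.51 and 6.83 to 9.22 and 9.31 CPM, by 0.37 ± 0.08 against 1.27 in IPO13+/+ cells (interaction -0.90, FDR = 6.7e-05, called under every alternative). In the unfolded protein response of the endoplasmic reticulum 7 of 32 members rose, about the 21.2% of well-expressed genes, 11 fell, against 22.8%, and the median was -0.09. The falls were 3 and 6 without untreated replicate 1 or 2 and 3 and 7 without treated replicate 1 or 2, and the rises 3 without untreated and 4 without treated replicate 2. *Xbp1*, a main factor of that response, fell from 39.8 and 38.9 to 24.8 and 26.9 CPM (-0.61 ± 0.06, FDR = 1.7e-09). The chaperone *Hspa5* (BiP) measured 1046 and 982 CPM untreated and 912 and 969.7 CPM treated, at the edge of the call (FDR = 0.046), which any 1 IPO13-/- library left out removed. *Dnajb9*, a co-chaperone of BiP, rose by 0.50.

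NF-kB genes moved in both directions. Of 28 tested genes 11 were higher and 5 lower, where 14.9% and 14.4% of all tested genes were, so that the share of falls was near that of all genes. Of the 19 inhibitors and targets among them 5 rose, 3 fell and 11 did not pass. The count of 5 falls among the 28 was 1 without untreated replicate 1 and 3 without any other 1 of the IPO13-/- libraries. *Nfkbia*, the inhibitor IkB-alpha, went from 37.6 and 34.9 to 61.6 and 63.4 CPM (0.78 ± 0.05), *Tnfaip3*, the deubiquitinase A20, from 3.16 and 2.87 to 4.88 and 5.53 CPM, and the adhesion molecule *Icam1* from 62.96 and 59.4 to 103 and 101 CPM. *Bcl3*, an atypical member of the inhibitor family, fell from 53.1 and 49.5 to 30.8 and 30.4 CPM (-0.74 ± 0.05). The cytokine genes *Cxcl1*, *Tnf* and *Il6* did not pass and had at most 0.145 CPM in any IPO13-/- library. *Nfkbia* rose by 0.26 in IPO13+/+ cells, a difference of 0.52 that was called under every alternative (FDR = 3.7e-05). Interferon-stimulated genes gave 3 rises and 1 fall among 17 tested, the rises being near the 14.9% of all genes.

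Signals of the TGF-beta family and of lipid synthesis changed in IPO13-/- cells as well. Of 23 NODAL and BMP genes, 13 were higher and 5 lower, against 14.9% and 14.4% of all tested genes and 21.2% and 22.8% of well-expressed ones, with a median of 0.29, and the falls were 3 without any 1 of the IPO13-/- libraries. The ID proteins block differentiation factors of the helix-loop-helix class and are induced by BMP: *Id2* rose from 28.7 and 32.2 to 90.8 and 89.8 CPM and *Id1* from 25.99 and 25.9 to 52.5 and 53.3 CPM (1.57 ± 0.05 and 1.03 ± 0.06). *Bmp7*, a ligand, rose from 3.26 and 3.12 to 7.49 and 7.76 CPM, whereas *Smad6*, which inhibits BMP receptors, fell from 5.202 and 5.17 to 2.49 and 2.52 CPM (-1.05 ± 0.10, FDR = 4.5e-09). In IPO13+/+ cells *Id2*, *Id1* and *Smad6* changed by 0.84, 0.32 and -0.20, and each difference was called under every alternative. Of 20 enzymes of cholesterol synthesis, 19 of them well expressed, 7 rose and 1 fell, against 21.2% and 22.8% of well-expressed genes. *Sc4mol* and *Cyp51*, which remove methyl groups from lanosterol derivatives, measured 46.5 and 48.9 and 84.3 and 88.8 CPM untreated and 68.01 and 65.8 and 118 and 113 CPM treated. The interaction called 7 of the 20, where it called 4.53% of well-expressed genes, but 2 and 3 without untreated IPO13-/- replicate 1 or 2 and 4 without treated replicate 1 of either genotype, and the 5 enzymes called in IPO13+/+ cells were all lower there. *Insig1*, which holds SREBP factors in the endoplasmic reticulum, rose by 0.42 on the log2 scale, with a difference from IPO13+/+ cells of 0.44.

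Among 19 genes of the hypoxia response 4 rose, a share near the 21.2% of well-expressed genes, and 8 fell, against 22.8%. The largest log2 fold change of the 19 was 1.46, and 2 rose by 2-fold or more. *Bhlhe40*, a repressor related to *Bhlhe41*, was 1 of these 2, from 27.8 and 27.01 to 73.3 and 74.3 CPM (1.43 ± 0.05). It rose by 0.66 in IPO13+/+ cells (interaction 0.77, FDR = 2.2e-08, called under every alternative). *Egln3*, an oxygen-sensing prolyl hydroxylase, fell from 30.5 and 31.7 to 16.7 and 22.8 CPM. *Pdk1*, a kinase that inhibits pyruvate dehydrogenase, fell from 125 and 118 to 90.1 and 89.9 CPM. *Epas1*, the gene of HIF-2-alpha, went from 172 and 161 to 131 and 126 CPM. The treated libraries of *Egln3* differed from each other by more than those of the other genes. For *Pdk1* and *Epas1* both treated libraries lay together below both untreated ones.

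Core pluripotency factors mostly fell by small amounts. Of 9 core factors 7 were lower and 2 higher, with a median log2 fold change of -0.22, and of 19 naive factors 8 were lower and 6 higher, with a median of 0.00, where 22.8% and 21.2% of well-expressed genes were. *Nanog* measured 571 and 567 CPM before and 404 and 422 CPM after H2O2 (-0.46 ± 0.04, FDR = 1.3e-09). *Sox2* fell by 0.17 ± 0.04 on the log2 scale. *Pou5f1*, the gene of OCT4, stood at 1307 and 1348 CPM untreated and 1397 and 1505 CPM treated, a small rise (0.13 ± 0.05) whose call (FDR = 0.036) was lost under 10 alternatives, among them without untreated replicate 1 or 2 and without treated replicate 2. *Prdm14* (given above) and *Tet2*, a dioxygenase that oxidises methylcytosine, showed the largest falls, the latter from 224 and 199 to 152 and 133 CPM. *Klf2*, a naive factor, moved oppositely, from 176 and 177 to 230.3 and 240.1 CPM (0.41 ± 0.04). Of 20 formative and mesoderm genes 10 fell and 3 rose, the rises being near the 14.9% of all tested genes and the falls above the 14.4%. *Lef1*, *Zic5*, *Otx2* and *Eomes*, factors of the primed epiblast and of mesoderm, measured 15.4 and 13.4, 9.36 and 8.76, 12.2 and 11.6 and 13.7 and 12.8 CPM in untreated and 8.201 and 7.42, 4.69 and 5.19, 6.41 and 7.21 and 8.11 and 8.39 CPM in treated libraries. Their log2 fold changes lay between -0.88 and -0.69, while *Wnt3* and *Fgf5* rose (3.14 and 1.08). Both lists thus held members that rose and members that fell.

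Genes of cell division that passed the test mostly fell, by small amounts. Of 50 mitotic genes, all well expressed, 21 were lower and 3 higher, against 22.8% and 21.2% of well-expressed genes, with a median of -0.11. The falls numbered 14 and 13 without untreated replicate 1 or 2, and 15 and 13 without treated replicate 1 or 2. *Mki67*, a coat protein of mitotic chromosomes, measured 442 and 393 and 358 and 315 CPM, *Top2a*, which untangles DNA, 732 and 738 and 610.1 and 602 CPM, and *Plk1*, a mitotic kinase, 206 and 216 and 177 and 172 CPM. The fall of *Mki67* was not called without untreated replicate 1 or treated replicate 2. *Psrc1* and *Ckap2*, spindle proteins that p53 is known to induce, rose by 0.56 ± 0.04 and 0.51 ± 0.04. Of 17 regulators of S phase entry 11 fell (7 without untreated replicate 2) and 2 rose, against the same shares: *Ccne1*, cyclin E1, went from 211 and 214 to 163 and 167 CPM, *Ccnd2*, cyclin D2, from 6.73 and 7.28 to 4.86 and 4.38 CPM, *E2f8*, a repressive E2F factor, from 103 and 99.98 to 75.5 and 73.5 CPM, and *Rb1*, the pocket protein that restrains E2F factors, rose from 14.6 and 14.5 to 30.9 and 28.4 CPM (1.03 ± 0.06). Genes of homologous recombination and the Fanconi pathway gave 9 falls and no rise among 18, all well expressed, against 22.8% and 21.2% of well-expressed genes. The falls were 2 and 5 without untreated replicate 1 or 2 and 6 and 3 without treated replicate 1 or 2. *Brca2*, a mediator of recombination, fell from 97.5 and 93.5 to 79.3 and 68.2 CPM, a call lost without untreated replicate 1.

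Changes below 2-fold in well-expressed genes were named by their p-values. The 10 smallest p-values among such rises belonged to *Ccng1*, *Cldn4*, *Aqp3*, *Sesn2*, *Abcb1b*, *Mapkapk3*, *Rnf128*, *Klf6*, *Dapk1* and *Sqstm1*, with log2 fold changes between 0.84 and 0.99. *Cldn4*, a claudin of tight junctions, rose from 107 and 114 to 218 and 218 CPM, and *Aqp3*, an aquaporin that also passes H2O2, from 78.5 and 78.9 to 149 and 149.9 CPM. *Sesn2*, a sestrin that inhibits mTORC1 and helps restore peroxiredoxins, rose from 127 and 123 to 238 and 227 CPM, and *Abcb1b*, a drug efflux pump, from 37.1 and 37.5 to 73.2 and 75.2 CPM. A spread of the replicates that is small beside the change is what this choice by p-value selects. The 10 falls chosen in the same way were *Myrf*, *Bcl3*, *Zfp518b*, *Foxd3*, *Dusp27*, *Bend3*, *Rcor2*, *G2e3*, *D630045M09Rik* and *Inhbb*, with log2 fold changes from -0.80 to -0.50. *Foxd3*, a forkhead factor that maintains pluripotent cells, measured 50.9 and 52.3 CPM before and 31.3 and 32.2 CPM after treatment, and *Rcor2*, a corepressor that works with LSD1, 211 and 216 and 150.0 and 151 CPM. *Bend3*, a repressor bound to heterochromatin and CpG-rich promoters, fell from 102 and 96.7 to 66.8 and 62.6 CPM.

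Ribosomal and mitochondrial protein genes rose by small amounts, with counts that depended on single libraries. Of 75 ribosomal protein genes 66 were higher and none lower, against 21.2% and 22.8% of well-expressed genes, with medians of 0.17 for the small and 0.15 for the large subunit. *Rps14* went from 924 and 976 to 1170.2 and 1364 CPM and *Rps27a* from 898 and 894 to 1033 and 1235 CPM. In both, the treated replicates stood well apart from each other, with replicate 2 the higher. The count of 66 was 12 without untreated replicate 1 and 17 without treated replicate 2. These genes have many processed pseudogenes, and how the authors' counting divided shared reads is not given in the sources used here. Of 55 subunits of the respiratory chain and ATP synthase, 32 rose and none fell, against the same shares, with a median of 0.13. *Atp5l*, a subunit of ATP synthase, went from 68.7 and 74 to 83.5 and 92.6 CPM and *Ndufa4* from 152 and 155 to 175 and 193 CPM. Here the count was 4 and 20 without untreated replicate 1 or 2, 7 without treated replicate 2, 16 with library totals and 21 with limma-voom. In IPO13+/+ cells no ribosomal gene rose, 1 fell and the median was -0.02, and no respiratory gene rose, 1 fell and the median was -0.02. The interaction called 6 of the 75 ribosomal genes, against 4.53% of well-expressed genes, a count that went from 0 without either untreated IPO13-/- library, without treated IPO13-/- replicate 2 or without treated IPO13+/+ replicate 1 to 61 without untreated IPO13+/+ replicate 1.

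Both groups consist of short transcripts, and the response varied with transcript length over all genes. Of 12193 genes with at least 1 CPM over the IPO13-/- libraries, 11452 had a length and GC content in the annotation. In 5 equal bins by the length of the longest transcript, their median log2 fold change in IPO13-/- cells went from 0.05 in the shortest to -0.06 in the longest bin, and in IPO13+/+ cells from -0.03 to -0.06. By GC content the medians went from -0.07 in the lowest to 0.04 in the highest bin in IPO13-/- cells, and from -0.08 to 0.005 in IPO13+/+ cells. Most ribosomal and respiratory genes lay in the shortest bin, whose median of 0.05 stands beside theirs of 0.15 and 0.13. Most antioxidant genes of glutathione and thioredoxin lay in that bin too, and their median was 0.13. The part that length and GC content have in these shifts was not tested.

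**Figure D5:**
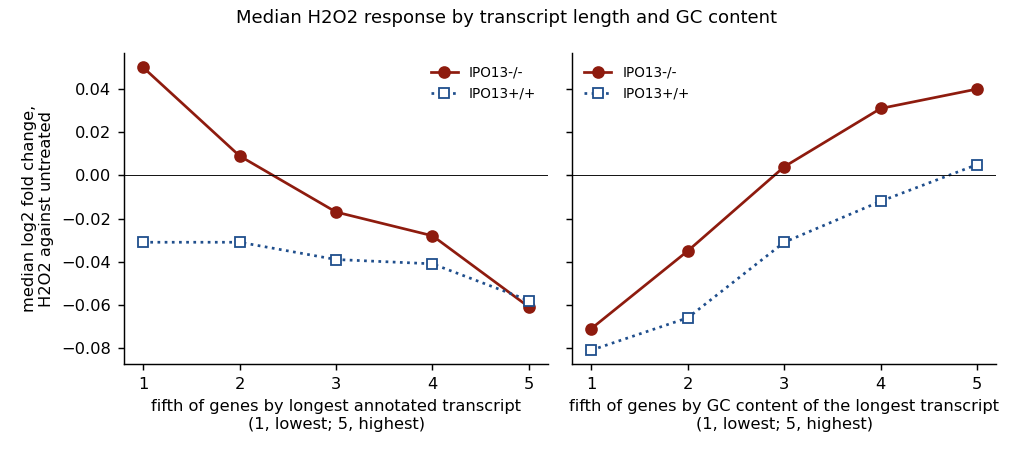
Median log2 fold change after H2O2 (vertical axis) of 11452 genes with at least 1 CPM, in 5 equal bins by longest annotated transcript (left) and by its GC content (right), filled circles for IPO13-/- and open squares for IPO13+/+ mESCs. In IPO13-/- cells the median falls from 0.05 to -0.06 with length and rises from -0.07 to 0.04 with GC content.

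Nuclear transport genes moved little. Of 23 importins and exportins 8 fell and 1 rose, against 22.8% and 21.2% of well-expressed genes, all by 0.23 or less on the log2 scale. Of 16 genes of IPO13 and its known cargoes, 1 rose and 3 fell, shares no higher than the 21.2% and 22.8% of well-expressed genes. The rise was that of *Nr3c1*, the glucocorticoid receptor, from 19.7 and 19.04 to 46.3 and 43.8 CPM (1.22 ± 0.06). Its value in IPO13+/+ cells was 1.25, a difference of -0.03 that was not called (FDR = 0.98). Among the transcription factors that the study examined as candidates, *Klf4* measured 473 and 477 CPM untreated and 395 and 394 CPM treated, *Rreb1* 51.5 and 49.4 and 36.2 and 34.4 CPM, *Nfatc2* 12.98 and 12 and 22.1 and 19.8 CPM, and *Sp1* 304 and 280.4 and 295 and 278 CPM. *Klf4* and *Rreb1* were lower (-0.27 ± 0.04 and -0.52 ± 0.06), *Nfatc2* was higher (0.74 ± 0.07) and *Sp1* did not pass (FDR = 0.75).

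The study followed 10 genes by quantitative PCR, 9 of them for a change in IPO13+/+ but not IPO13-/- cells, so they were chosen on these samples. The study counted a gene as changed at an FDR below 0.05 and at least 2-fold. It reported that PCR of its chosen genes matched its sequencing. At an FDR below 0.05 and any size of change, 5 of the 10 passed here as higher and 2 as lower in IPO13-/- cells. *Snai3*, a SNAIL-type repressor, went from 5.68 and 5.33 to 9.297 and 11.4 CPM, *Neu3*, a membrane sialidase, from 1.86 and 2.32 to 3.51 and 4.25 CPM, and *Dok1*, an adaptor of tyrosine kinases, from 5.27 and 5.46 to 9.59 and 9.796 CPM. *Ppard*, a lipid-sensing nuclear receptor, rose from 22.1 and 21.6 to 40.02 and 40.1 CPM and *Rasd1*, a small G protein, from 0.779 and 0.628 to 1.22 and 1.02 CPM, with log2 fold changes for the 5 genes of 0.91, 0.90, 0.85, 0.88 and 0.66. All 5 stayed below 2-fold in IPO13-/- cells, and the values in IPO13+/+ cells were 1.03, 1.04, 1.0, 0.99 and 1.29. None of these 5 differences was called by the interaction (FDR between 0.24 and 0.82). Of the 10 genes the interaction called only *Fosb*, which did not pass in IPO13-/- cells in the main fit (difference -1.14, FDR = 1.6e-04). That call depended on untreated IPO13-/- replicate 1, as given above. *Lef1*, also given above, was among the falls. The call of *Rasd1* in IPO13-/- cells was lost without untreated replicate 2 and without treated replicate 1. *Stox1* measured 0.06602 and 0.145 CPM untreated and 0.247 and 0.162 CPM treated and did not pass, and *Il5* had at most 1 count in any IPO13-/- library. *Cyp2s1*, a P450 that the study used as a control, fell from 43.1 and 38.7 to 18.3 and 20.1 CPM (-1.09 ± 0.06), and by 1.1 on that scale in IPO13+/+ cells.

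Of the 527 genes whose responses differed between genotypes, 390 had the larger value in IPO13-/- cells and 137 the smaller. Of the 390, 343 were called as rises in IPO13-/- cells and 142 in IPO13+/+ cells. Among called genes with at least 1 CPM over the 8 libraries, the 6 largest positive differences were those of *Cyp1a1*, *Cyp1b1* and *Ahrr*, given above, and of *Bdkrb2*, a bradykinin receptor (0.489 and 0.403 to 2.46 and 2.28 CPM, interaction 1.65), *Sema6a*, a semaphorin (2.17 and 1.92 to 7.06 and 6.84 CPM, interaction 1.11), and *Rtn4r*, the NOGO receptor (1.16 and 1.21 to 3.29 and 3.38 CPM, interaction 1.1). The 6 largest negative ones of the same genes were in *Nlrc5*, which activates MHC class I genes, *Fosb*, *Itgb1bp2*, *Fam163b*, *Fbxo48* and *Aoc3*. *Nlrc5* and *Fam163b* rose in both genotypes, by 1.31 and 1.79 in IPO13-/- and by 2.47 and 2.88 in IPO13+/+ cells, and *Itgb1bp2* and *Aoc3* fell in IPO13-/- cells, with log2 fold changes of -1.49 and -1.14 against -0.35 and -0.21 in IPO13+/+ cells.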

How the data were processed

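RNA-seq of 8 libraries was analysed, 2 for each combination of genotype and treatment. The authors mapped reads to mm10, and the submitters' processing notes name bcl2fastq, STAR 2.3.1, HTSeq and limma. The authors deposited whole-number counts per gene together with CPM values in each table; the deposited CPM were checked but only the counts were tested. How multiply mapped reads and strand were handled is not given in the sources used here, so near-identical or overlapping genes are uncertain.

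The 19424 genes that had a count in 1 library or more were fitted over all 8 libraries with edgeR 4.0.16 in R 4.3.3 (TMM factors, quasi-likelihood F test, Benjamini-Hochberg FDR). Contrasts were H2O2 against untreated in each genotype and their difference, the interaction. Standard errors are the log2 fold change over the root of F. A call is an FDR below 0.05, with a log2 fold change of at least 1 where 2-fold is stated. Well-expressed means at least 10 CPM on average over the IPO13-/- libraries. The fit was tested on simulated data. Depth was 60397877 to 73789079 reads on genes in IPO13-/- libraries, and the floor of 3 counts covers counting error only.

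Members and gene lists were chosen with earlier results of these data known. Genes were named for large or significant changes, so groups that stand apart in named genes follow in part from that choice. Named genes are the 10 largest rises and falls called at 2-fold with at least 1 CPM and groups that do not overlap, the 10 most significant changes below 2-fold in well-expressed genes, up to 5 called members for each role of a list with any members that did not pass, the genes the study examined, and the 6 largest interaction values in each direction. Named outside this rule, after values were seen, were *Jun*, *Egr1*, *Gclm*, *Prdx3*, *Mcoln1*, *Hspa8*, *Hsph1*, *Hspa1b*, *Hspa5*, *Pdk1*, *Epas1*, *Sox2*, *Pou5f1*, *Zic5*, *Otx2* and *Eomes*. Rows whose symbols had become dates (27) were not named, and some genes are not reported here. Promoter windows came from RefSeq (GRCm38.p6). Alternatives were RLE factors, library totals, other filters, DESeq2 1.42.0, limma-voom (limma 3.58.1), a replicate block, the 4 IPO13-/- libraries alone, another limit for well-expressed genes, and leaving out each library. With 2 libraries against 2 an exact permutation test cannot go below p = 0.333, so single values carry the adjusted p of the edgeR fit.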

Additional observations from a re-analysis of the deposited data

Results flagged for a closer look

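The responses of 66 named genes differed between genotypes in edgeR's interaction test at an FDR below 0.05, with the log2 difference (IPO13-/- minus IPO13+/+) above 0 for 52 and below 0 for 14. All kept their sign in 15 alternatives, 31 kept the call in every one, and 32 were called without untreated IPO13-/- replicate 1. Among p53, growth arrest and death genes, the difference was 0.28 for *Mdm2*, 0.50 for *Cdkn1a*, 0.40 for *Plk2*, 0.25 for *Btg2*, 0.53 for *Btg1*, 0.55 for *Trp73*, 0.31 for *Phlda3*, 0.28 for *Trp53inp1*, 0.26 for *Perp* and 0.28 for *Bbc3*. Among early response and MAP kinase feedback genes, the difference was 0.58 for *Maff*, 0.49 for *Fosl2*, 0.38 for *Arc*, 0.43 for *Klf6*, 0.75 for *Dusp4*, 0.57 for *Dusp5* and 0.53 for *Phlda1*. Among antioxidant, lysosomal and autophagy genes, the difference was 0.45 for *Hmox1*, 0.64 for *Bach1*, 0.58 for *Sqstm1*, 0.25 for *Nfe2l2*, 0.30 for *Ctsd*, 0.46 for *Ctsa*, 0.47 for *Ctsl*, 0.38 for *Hexa*, 0.50 for *Neu1*, 0.27 for *Gabarap* and 0.30 for *Map1lc3b*.

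Among aryl hydrocarbon receptor genes, the difference was 3.92 for *Cyp1a1*, 2.05 for *Cyp1b1*, 1.53 for *Ahrr* and 0.39 for *Tiparp*. Among genes of NF-kB and BMP signalling and of the endoplasmic reticulum, the difference was 0.52 for *Nfkbia*, 0.52 for *Tnfaip3*, 0.29 for *Icam1*, 0.73 for *Id2*, 0.71 for *Id1* and 0.38 for *Dnajb9*. Among cholesterol genes, the difference was 0.44 for *Sc4mol*, 0.46 for *Cyp51* and 0.44 for *Insig1*. Positive differences of other genes were 1.02 for *Dll1*, 0.59 for *Pvrl4*, 0.97 for *Bhlhe41*, 0.77 for *Bhlhe40*, 0.27 for *Klf2*, 0.40 for *Cldn4*, 0.44 for *Aqp3*, 0.25 for *Mapkapk3*, 1.65 for *Bdkrb2*, 1.11 for *Sema6a* and 1.1 for *Rtn4r*. Negative differences were -0.49 for *Prdm14*, -0.72 for *Pirt*, -1.13 for *Itgb1bp2*, -0.93 for *Aoc3*, -0.62 for *Fos*, -0.40 for *Jun*, -1.14 for *Fosb*, -0.80 for *Hspa1b*, -0.90 for *Chac1*, -0.85 for *Smad6*, -0.40 for *Inhbb*, -1.15 for *Nlrc5*, -1.1 for *Fam163b* and -0.93 for *Fbxo48*. Since the difference is taken between rises, falls or both, a negative value can be a smaller rise, as in *Fos*, *Jun* and *Chac1*, or a larger fall, as in *Prdm14* and *Smad6*. The cause of these differences was not tested, and with 1 line per genotype the loss of IPO13 and other differences between the lines cannot be told apart.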

How the results depend on the processing

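Directions were stable and counts of small changes were not. Of 172 genes named, 159 were called, 11 of these lost the call under at least 1 of 16 alternatives, and no gene changed sign. Another 4, not called in the main fit, gained a call under at least 1 alternative. Falls of 2-fold or more numbered 72, but 35 with DESeq2 and 122 with limma-voom. The 1964 falls below 2-fold in well-expressed genes became 1232 at a limit of 30 CPM. Interaction calls numbered 527, but 349 with edgeR's own filter on low counts, 292 with DESeq2 and 255 with limma-voom.

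When single libraries were left out, rises of any size ranged from 1864 to 3233 and falls from 1340 to 3222, rises of 2-fold or more from 396 to 500 and falls from 49 to 77, rises below 2-fold in well-expressed genes from 1111 to 2008 and falls from 960 to 2303, and interaction calls from 73 to 1157. The lowest value of each range came without untreated IPO13-/- replicate 1. Library totals in place of TMM factors gave 2489 rises and 3545 falls of any size where TMM gave 2900 and 2803, and moved the median of well-expressed genes from -0.01 to -0.04.

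Nothing in the labels says that a replicate number pairs samples. Over 8620 genes, deviations of same-numbered samples correlated at 0.352 between the IPO13-/- groups and at 0.367 and 0.642 between these and untreated IPO13+/+ cells, but at -0.09 to -0.001 in pairs with treated IPO13+/+ cells, and 2 samples a group cannot settle a pairing. With a replicate block, rises and falls of any size numbered 3253 and 3271, those of 2-fold or more 494 and 76, those below 2-fold in well-expressed genes 2023 and 2333, and interaction calls 1286. Of genes under 0.1 CPM in untreated IPO13-/- cells, 2.53% were called as higher and 0.138% as lower. Whether depth limited these calls was not tested.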
